A study of Rattus norvegicus with 20 samples.

Results

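The CD surface antigens described here were the rat genes whose current symbol is Cd followed by a number, such as Cd4 or Cd74. A pattern over single platform symbols found 63 genes, of which Cd36, Cd68, Cd14 and Cd5l were left out by the selection rule. The remaining 59 genes, of 14557 with a single symbol on the array, were each represented by the probe set with the highest mean over the 20 arrays. Each gene was put by hand, from general knowledge of the antigens, in a class by the cell taken as its main carrier. The classes held 15 genes for macrophages and related myeloid cells, 24 for lymphocytes, 3 for endothelium and 17 for a broad class. Other cells can carry the same antigens, so a class median is not a measure of a cell type. The 5 symbols Cd177l2, Cd200l1, Cd200l2, Cd209l1 and Cd244l1 have no carrier in the table used and were placed in the broad class. Membership rested on the symbol, and measured values entered only through the choice of probe set by its mean over all arrays. The list was drawn up with earlier results of these data known, and every member that passed a filter on low values was tested.

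CD numbers name cell surface proteins that antibodies distinguish on blood and tissue cells, and they group proteins by detection and not by function. In the liver, Kupffer cells (the resident macrophages of the sinusoids), lymphocytes, sinusoidal endothelium and hepatocytes carry different sets of them. Antigen presentation joins several: the invariant chain Cd74 guides MHC class II molecules to the endosome, Cd4 binds class II molecules from the side of the responding cell, and Cd80 and Cd86 give the second signal to T cells. In the rat, macrophages carry CD4 as helper T cells do, so Cd4 transcripts are not particular to lymphocytes there.

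Liver RNA from 20 male rats was measured on Affymetrix Rat Gene arrays, 1 array per rat and 5 rats per group. The groups were rats labelled rosiglitazone (a thiazolidinedione that activates the nuclear receptor PPAR gamma), rats labelled resveratrol (a plant polyphenol), obese rats that had received a stock diet for 6 weeks, and lean control rats on a standard chow. The strain is given as Zucker for every rat, the growth notes describe all animals as ZDF (Zucker diabetic fatty) rats in individual cages, and the labels give neither a dose, a duration nor a body type for the rosiglitazone and resveratrol rats. Values are log2 expression after the authors' normalisation, and 5 rats stand behind each mean ± SD unless another n is given. All 4 groups shared 1 limma fit, so the comparisons are not independent: the obese rats, for example, enter both rosiglitazone minus obese and obese minus lean control.

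Array medians lay between 2.36 and 2.53, and correlations between arrays lay between 0.947 and 0.982. The tested hepatocyte markers averaged 10.5 to 10.8 on every array and 0 of 8 passed in any of the 6 comparisons. Of the 59 CD genes, 35 lay above the array median on at least 5 arrays and were tested: 10 of the macrophage class, 12 of the lymphocyte class, 2 of the endothelium class and 11 of the broad class. Of these 35, 22 were above the median on all 20 arrays, and 0 passed the filter through a single group. The other 24 had group means of 0.93 to 2.35. No detection call was used here, and for dim genes such an array scale understates differences.

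Promoters of Cd74, of the MHC class II genes RT1-Da and RT1-Bb and of Cd86 are printed. These 4 are among the genes that were higher in rosiglitazone than in obese livers, as described below. Cd4 had no promoter in the set used, and those of RT1-DMb and Lgmn, which were also higher, are not printed. The sequences are from RefSeq (rat build GRCr8) and run from 250 bases before to 50 bases after each gene's annotated start. The first 3 printed genes belong to the class II pathway. Promoters of this pathway are known for a module of conserved boxes, the X and Y boxes, read by the RFX and NF-Y complexes. Capitals mark 3 motifs searched on both strands: the X box core TAGCAAC, the inverted CCAAT box ATTGG that makes up the Y box, and the purine box GAGGAA that the myeloid factor PU.1 recognises, each also as its reverse complement. No capitals of different motifs overlap.
Cd74, chr18:56526956-56527255, plus strand: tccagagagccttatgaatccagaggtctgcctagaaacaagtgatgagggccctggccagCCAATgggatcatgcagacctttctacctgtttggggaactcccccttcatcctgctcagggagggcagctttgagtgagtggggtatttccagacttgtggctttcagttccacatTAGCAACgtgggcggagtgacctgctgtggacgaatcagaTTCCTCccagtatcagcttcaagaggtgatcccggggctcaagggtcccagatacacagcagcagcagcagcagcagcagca
RT1-Da, chr20:4515165-4515464, plus strand: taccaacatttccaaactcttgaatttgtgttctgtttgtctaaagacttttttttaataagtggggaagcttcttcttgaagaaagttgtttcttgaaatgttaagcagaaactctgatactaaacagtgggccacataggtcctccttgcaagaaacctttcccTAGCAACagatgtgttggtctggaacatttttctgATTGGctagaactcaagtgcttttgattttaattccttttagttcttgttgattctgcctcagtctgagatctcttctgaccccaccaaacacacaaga
RT1-Bb, chr20:4604069-4604368, minus strand: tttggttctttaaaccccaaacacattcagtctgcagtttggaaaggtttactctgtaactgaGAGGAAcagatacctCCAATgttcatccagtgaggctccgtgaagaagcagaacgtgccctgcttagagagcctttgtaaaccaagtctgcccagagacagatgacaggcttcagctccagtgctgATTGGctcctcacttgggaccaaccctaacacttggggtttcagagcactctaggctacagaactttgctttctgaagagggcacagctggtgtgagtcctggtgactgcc
Cd86, chr11:77669031-77669330, plus strand: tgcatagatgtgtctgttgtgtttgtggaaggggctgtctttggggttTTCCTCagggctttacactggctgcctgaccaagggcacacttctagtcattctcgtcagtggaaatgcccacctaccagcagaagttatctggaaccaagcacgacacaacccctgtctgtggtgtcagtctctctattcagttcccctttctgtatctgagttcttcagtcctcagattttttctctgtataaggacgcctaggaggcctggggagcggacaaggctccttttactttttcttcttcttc

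The X box core was found in the windows of Cd74 and RT1-Da. The CCAAT box was found in those of Cd74, RT1-Da and RT1-Bb, in the last at 2 places. In Cd74 the match read CCAAT and lay before the X box core, while in RT1-Da it read ATTGG and lay after it. The spacing and order of the boxes were not tested. The purine box was found in the windows of Cd74, RT1-Bb and Cd86. Among all 33469 promoters of this length, 3.58% held the X box core, 37.5% the CCAAT box and 27.6% the purine box. The X box core letters were chosen after these promoters had been read, so their presence there is no test. Of the 48 CD genes with a promoter in the table, 2 held the X box core (4.17%), 13 the CCAAT box (27.1%) and 18 the purine box (37.5%). A match is a description of letters and not evidence of binding.

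In rosiglitazone livers Cd4, Cd74 and Cd86 were higher than in obese livers. These 3 of the 35 tested CD genes passed (adjusted p under 0.05), and 0 passed as lower, while 1.04% of all 9481 genes tested were called higher and 0.454% lower. In this bulk tissue, more cells of a type and more RNA per cell cannot be told apart.

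Cd4 measured 6.57, 6.43, 6.26, 6.71 and 6.72 in rosiglitazone rats 1 to 5, against 5.85, 5.53, 5.52, 5.42 and 5.66 in obese rats. Every rosiglitazone rat lay above every obese rat. The means were 6.54 ± 0.20 in rosiglitazone and 5.60 ± 0.16 in obese livers (SD), a log2 fold change of 0.94 (SE 0.13, 95% interval 0.67 to 1.22) or 1.92-fold, with a limma adjusted p of 0.000424. A two-sided exact permutation test gave p = 0.00794, the smallest value 5 rats against 5 can give. Cd4 in resveratrol livers (6.22, 5.96, 5.84, 5.91 and 6.21) overlapped the obese group at its lower end, and in lean control livers it was 6.19, 6.53, 6.48, 6.30 and 5.86.

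Cd74, the invariant chain and also a receptor for the cytokine MIF, measured 7.77, 8.13, 7.58, 8.83 and 7.32 in rosiglitazone rats, against 6.90, 6.68, 7.15, 6.88 and 6.84 in obese rats. The groups did not overlap, and rosiglitazone rat 4 was the highest of the 20 animals. The group means were 7.93 ± 0.58 in rosiglitazone and 6.89 ± 0.17 in obese livers, with a log2 fold change of 1.04 (SE 0.21, 95% interval 0.60 to 1.47), or 2.05-fold, and a limma adjusted p of 0.0125 (exact permutation p = 0.00794, two-sided). Without any single array the log2 fold change stayed between 0.81 and 1.19. Resveratrol rats (7.06, 7.42, 7.09, 7.31 and 7.03) and lean control rats (6.69, 7.53, 7.47, 7.45 and 7.14) both overlapped the obese rats.

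Cd86, the costimulatory ligand of CD28 and CTLA-4 on antigen presenting cells, measured 3.60, 3.56, 3.64, 3.37 and 3.76 in rosiglitazone rats, against 3.24, 2.93, 2.54, 2.77 and 2.54 in obese rats. Again all rosiglitazone rats were above all obese rats. Its log2 fold change was 0.78 (SE 0.16, 95% interval 0.45 to 1.11; limma adjusted p = 0.0125), from means of 3.59 ± 0.14 in rosiglitazone and 2.81 ± 0.29 in obese livers. The gene for the other B7 ligand, Cd80, was under the filter.

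**Figure D1:**
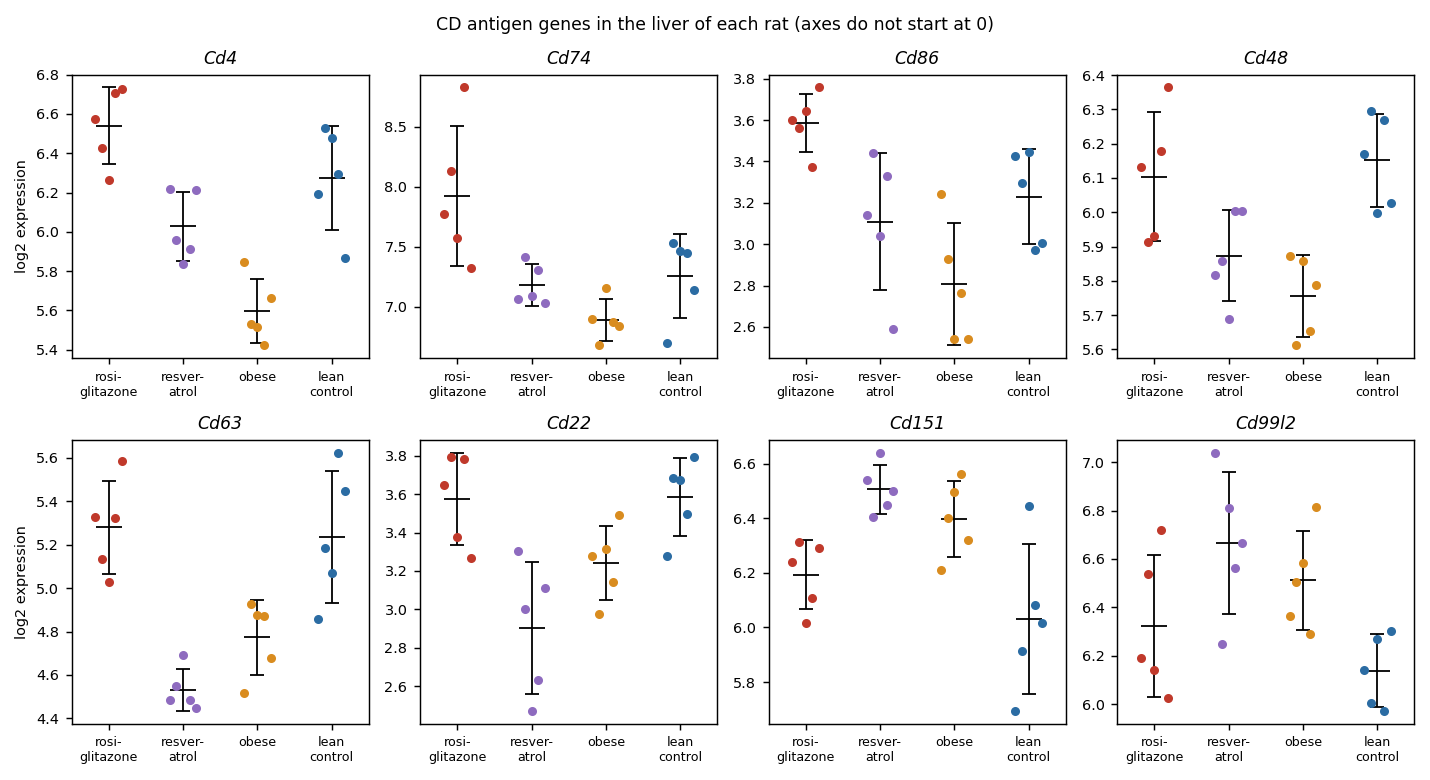
Log2 expression of 8 CD genes (vertical axis, not starting at 0) in each rat of the rosiglitazone, resveratrol, obese and lean control groups; points are rats, and the bars show the mean ± SD of 5 rats. All rosiglitazone rats lie above all obese rats for Cd4, Cd74, Cd86, Cd48 and Cd63.

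Of the other genes of the macrophage class, Cd48, a SLAM family ligand that binds CD2 and CD244, did not overlap either. It measured 5.91 to 6.36 in rosiglitazone and 5.61 to 5.87 in obese rats but did not pass (0.35, SE 0.11, adjusted p = 0.127). The leukocyte tetraspanin Cd53 had a log2 fold change of 0.43 (SE 0.16, adjusted p = 0.237), and the C-type lectin Cd302 one of 0.24 (SE 0.11, adjusted p = 0.360). Cd274, which encodes the inhibitory ligand PD-L1, was the one tested CD gene whose 5 rosiglitazone values (2.76, 3.19, 3.42, 3.62 and 3.49) all lay below the obese ones (3.63, 3.96, 4.03, 4.15 and 4.17). Its log2 fold change of −0.69 (SE 0.23) had an adjusted p of 0.167. In all, 5 members were higher and 1 lower without overlap, where 2.23% of all genes tested were higher and 1.69% lower in that way.

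The tetraspanin Cd63, which marks lysosomes and late endosomes, measured 5.33, 5.14, 5.03, 5.32 and 5.59 in rosiglitazone rats, against 4.52, 4.93, 4.87, 4.87 and 4.68 in obese rats. Without overlap between the groups, its log2 fold change of 0.51 (SE 0.14, 95% interval 0.23 to 0.79) just missed the threshold (adjusted p = 0.0641). Among the other broadly carried antigens, the tetraspanins Cd9 (0.55, SE 0.22, adjusted p = 0.295) and Cd81 (−0.31, SE 0.12, adjusted p = 0.252) and the lipid presenting molecule Cd1d1 (−0.26, SE 0.12, adjusted p = 0.372) did not pass.

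By class, the median log2 fold change for rosiglitazone minus obese was 0.11 over 10 macrophage genes (5 above 0), 0.10 over 12 lymphocyte genes (8 above 0), 0.21 over 2 endothelium genes and −0.04 over 11 broad genes (4 above 0). Over all 35 it was 0.07, beside 0.00 over all 9481 genes, and 19 of 35 were above 0, beside 49.2% of all genes. With Cd4 and Cd74 counted in the macrophage class instead, that class had a median of 0.25 (7 of 12 above 0, 3 called) and the 10 lymphocyte genes left had one of 0.09 with 0 called.

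**Figure D2:**
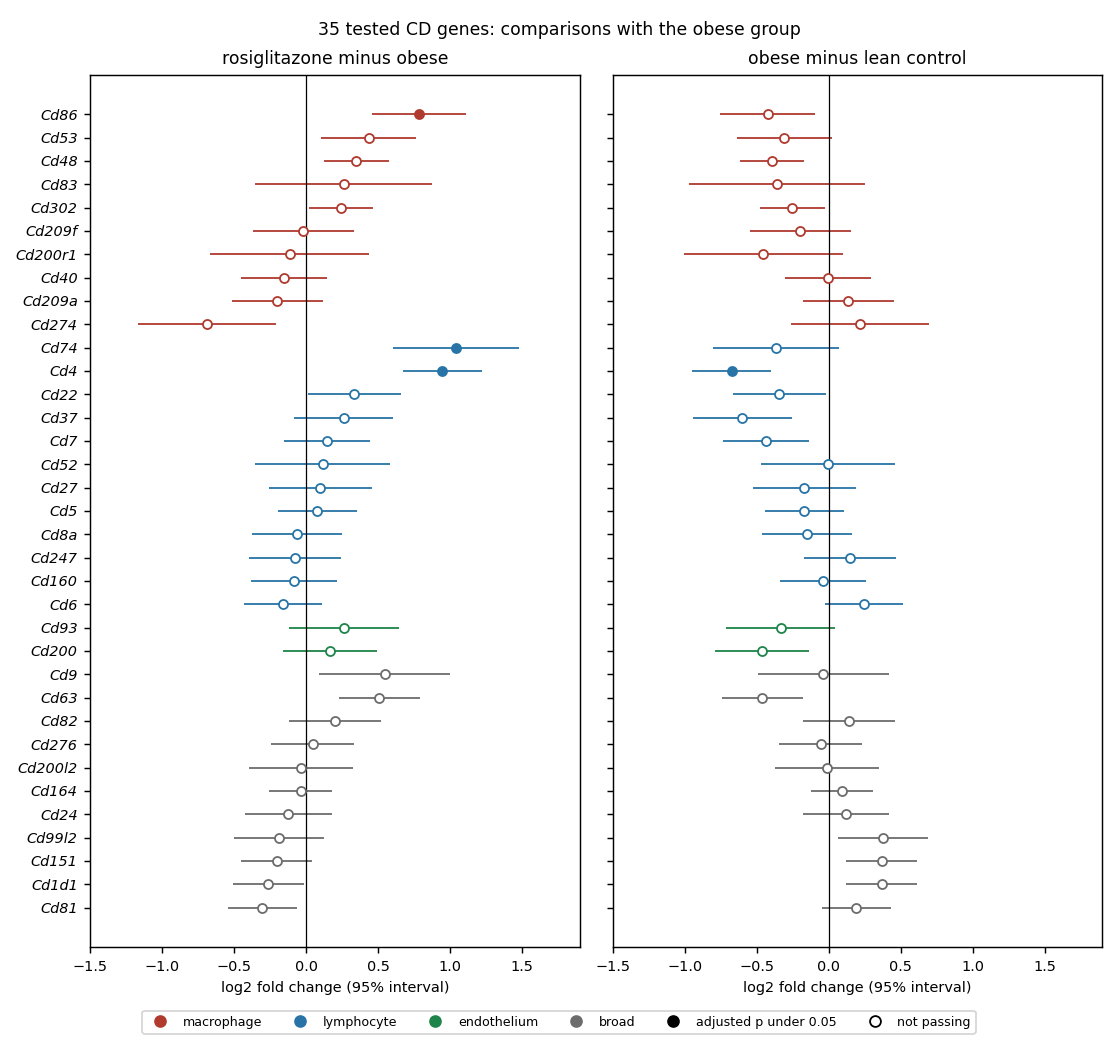
Log2 fold changes (horizontal axis, with 95% intervals) of the 35 tested CD genes for rosiglitazone minus obese and for obese minus lean control, coloured by carrier class; filled points passed at adjusted p under 0.05. The filled points are Cd86, Cd74 and Cd4, to the right of 0, in rosiglitazone minus obese and Cd4, to the left, in obese minus lean control.

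Of 12 tested genes of a list of MHC class II and antigen presentation genes, which holds partners of Cd4 and Cd74, 4 were higher in rosiglitazone than in obese livers, 0 were lower and 8 did not pass. The median log2 fold change was 0.32 (9 of 12 above 0). RT1-Bb, a class II beta chain, measured 4.15, 5.36, 4.31, 5.51 and 3.84 in rosiglitazone rats, against 3.38, 3.34, 3.73, 3.58 and 3.52 in obese rats (1.12, adjusted p = 0.0365). RT1-Da, a class II alpha chain, measured 5.89, 6.49, 5.50, 6.96 and 5.16 in rosiglitazone rats, against 5.14, 5.01, 5.33, 5.01 and 4.97 in obese rats (0.91, adjusted p = 0.0442). In both genes rosiglitazone rats 2 and 4 were the highest, as in Cd74, and RT1-Da overlapped between the groups.

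RT1-DMb, a chain of the DM molecule that exchanges the peptide of class II molecules, was higher by 0.68 (adjusted p = 0.0108), and the endosomal protease Lgmn by 0.60 (adjusted p = 0.0290). RT1-DMb overlapped between the groups, whereas Lgmn did not. RT1-Ba (0.27, adjusted p = 0.592), RT1-Db1 (0.36, adjusted p = 0.262) and RT1-DMa (0.50, adjusted p = 0.128) did not pass. The regulators Rfx5 (−0.33) and Rfxap (−0.08), subunits of the RFX complex, did not pass either. The RT1-Bb call was lost on leaving out 7 of the 10 arrays, one at a time (adjusted p up to 0.0986), and the RT1-Da call on leaving out 8 (up to 0.110), while RT1-DMb passed without any one of them. With only these 2 groups in the fit, RT1-Bb (adjusted p = 0.0756), RT1-Da (0.158) and Lgmn (0.0672) did not pass, and RT1-Da did not without a filter (0.0599) or with arrays centred on their median (0.0548). RT1 genes have close paralogues whose transcripts the probes may not separate.

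**Figure D3:**
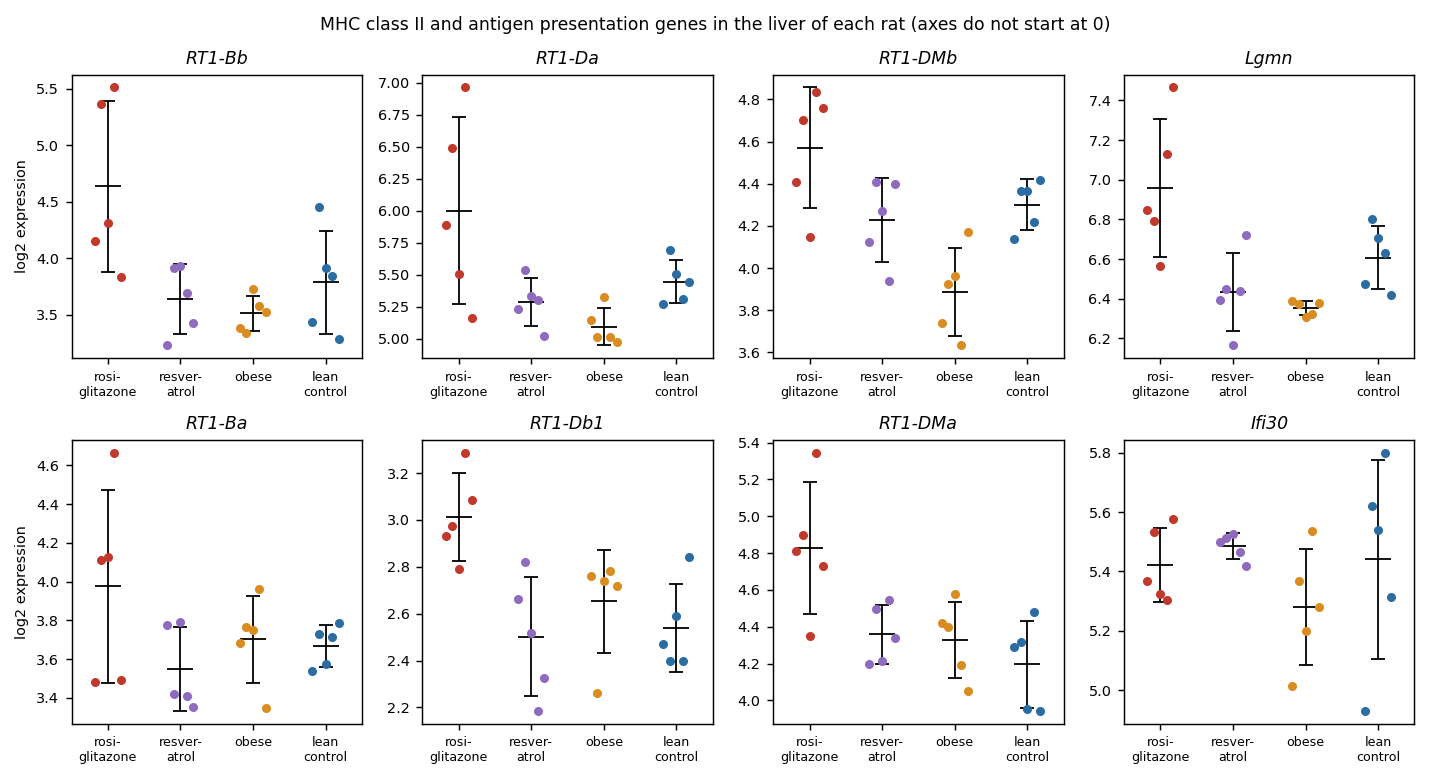
Log2 expression of 8 MHC class II and antigen presentation genes (vertical axis, not starting at 0) in each rat by group, with the mean ± SD of 5 rats. RT1-Bb and RT1-Da are highest in rosiglitazone rats 2 and 4, and the other 3 rosiglitazone rats lie nearer to the obese rats.

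Surface receptors under other gene symbols, many of them with a CD number of their own, were counted in lists by carrier. Of 19 tested macrophage receptors, 5 were higher in rosiglitazone than in obese livers: the complement receptor Vsig4 (1.27, adjusted p = 0.000849), the Fc receptor chain Fcer1g (0.70, adjusted p = 0.00234), the CSF-1 receptor Csf1r (0.86, adjusted p = 0.00695), the scavenger receptor Marco (1.66, adjusted p = 0.00772) and the Kupffer cell lectin Clec4f (0.71). The list's median was 0.41, and 0 were lower. Of 11 lymphocyte receptors only the integrin chain Itga4 passed (0.68, adjusted p = 0.0290; median 0.15), and of 14 endothelial receptors only the adhesion molecule Vcam1 (0.67, adjusted p = 0.0319; median 0.17). With the rats' replicate number as a block neither passed (adjusted p = 0.0608 for Itga4 and 0.0623 for Vcam1). A list of binding partners of CD antigens, with some genes linked to them only by function, had 12 tested genes. Of these, Hmox1 (1.27, adjusted p = 0.00221) and Ifitm3 (0.89, adjusted p = 0.0243) were higher. Hmox1 is not itself a binding partner but degrades the haem taken up through the haemoglobin receptor Cd163. Ifitm3 is an interferon-induced protein of a family that associates with Cd81.

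Of 9 tested macrophage markers, 7 were higher in rosiglitazone than in obese livers, as Cd4, Cd74 and Cd86 were, and 0 lower, and 4 of these also stand in the list of other macrophage receptors. Their mean log2 level per array was 5.71 to 6.33 in rosiglitazone, 5.27 to 5.53 in resveratrol, 5.06 to 5.35 in obese and 5.19 to 5.89 in lean control livers, without overlap between rosiglitazone and obese rats. All 7 tested endothelium markers were also above 0 in this comparison (median 0.19), and 1 was called higher. The part of the macrophage and endothelium markers in the result was not tested. The T cell receptor genes Cd3d, Cd3e and Cd3g were all under the filter, with group means of 1.14 to 2.03, and 0 of 3 tested T and NK cell markers passed.

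Obese livers had less Cd4 than lean control livers, and it was the 1 CD gene of 35 called. Of all genes tested, 1.13% were called lower and 0.686% higher. Cd4 measured 5.85, 5.53, 5.52, 5.42 and 5.66 in obese rats, against 6.19, 6.53, 6.48, 6.30 and 5.86 in lean control rats. The groups did not overlap, but obese rat 1 and lean control rat 5 nearly met. Means were 5.60 ± 0.16 in obese and 6.27 ± 0.26 in lean control livers, with a log2 fold change of −0.68 (SE 0.13, 95% interval −0.95 to −0.40; limma adjusted p = 0.0165), or 0.626 times the lean level. With only the obese and lean control rats in the fit the adjusted p was 0.0534. Of the 9 tested macrophage markers 8 were below 0 in this comparison, with a median of −0.49, and the complement gene C1qa was called lower (−0.56, adjusted p = 0.0133). Their mean level per array was 5.06 to 5.35 in obese and 5.19 to 5.89 in lean control livers, and their part in the Cd4 value was not tested.

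Cd48 (5.87, 5.61, 5.86, 5.65 and 5.79 in obese rats, against 6.17, 6.30, 6.00, 6.27 and 6.03 in lean control rats) and Cd200, the ligand of the inhibitory receptor Cd200r1 (2.16 to 2.65 against 2.76 to 3.01), also did not overlap. Their log2 fold changes were −0.40 (SE 0.11, adjusted p = 0.0603) and −0.47 (SE 0.16, adjusted p = 0.119). With Cd4, these 3 of 35 genes were lower without overlap and 0 higher, beside 2.0% of all genes lower and 1.53% higher. Cd37, a tetraspanin of B cells (−0.60, SE 0.16, adjusted p = 0.0610), and Cd63 (−0.46, SE 0.14, adjusted p = 0.0751) came close to the threshold, and the T cell antigen Cd7 had −0.44 (adjusted p = 0.109). Cd200 and Cd7 were dim in obese livers, with means of 2.39 and 2.23 beside array medians of 2.36 to 2.53. On the other side of 0 were the tetraspanin Cd151, a partner of laminin-binding integrins (0.37, SE 0.12, adjusted p = 0.104), Cd1d1 (0.37, SE 0.12, adjusted p = 0.106) and the adhesion molecule Cd99l2 (0.37, SE 0.15, adjusted p = 0.194).

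Without lean control rat 3, 6 CD genes passed in place of 1: Cd4, Cd37, Cd48 and Cd63 lower and Cd151 and Cd1d1 higher in obese livers. That rat had the highest Cd151 (6.45) and the highest Cd1d1 (5.39) of its group. Without obese rat 2 or without obese rat 4, Cd37 passed beside Cd4.

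By class, the median log2 fold change for obese minus lean control was −0.28 over the macrophage class (8 of 10 below 0), −0.17 over the lymphocyte class (10 of 12), −0.40 over the 2 endothelium genes (2 of 2) and 0.12 over the broad class (4 of 11). For all 35 genes 24 were below 0, beside 49.4% of all genes. The obese group had the lowest of the 4 group means in 14 of 35 CD genes (40%), against 22% of all genes tested.

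Among receptors under other symbols, the endothelial adhesion genes Vcam1 (−0.77, adjusted p = 0.0194), Lyve1 (−0.55, adjusted p = 0.0251) and Cdh5 (−0.51, adjusted p = 0.0379) were lower in obese livers, 3 of 14 tested, with a median of −0.50. Fcer1g was the 1 of 19 macrophage receptors to pass (−0.54, adjusted p = 0.0217), and Pvr, the ligand of Cd96 and Cd226, was lower as well (−0.92, adjusted p = 0.0244). All 5 calls were lost with only the obese and lean control rats in the fit, at adjusted p of 0.0516 for Vcam1, 0.0742 for Lyve1, 0.0925 for Cdh5, 0.0536 for Fcer1g and 0.0516 for Pvr. Cdh5 also did not pass without a filter, with arrays centred on their median or with the block (0.0568, 0.0647 and 0.0659). The tested endothelium markers averaged 4.65 to 4.88 per array in obese and 5.20 to 5.37 in lean control livers, without overlap, and 2 of 7 were lower. Their part in the values of Cd200 and Cd93 (−0.34, adjusted p = 0.364) was not tested.

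Resveratrol livers and obese livers differed in 0 of 35 CD genes by the adjusted limma test, while 0.0105% of all genes were called higher and 0.0% lower. At an unadjusted p under 0.05 there were 6 CD genes, beside 505 of all genes. These were Cd200 (0.54, 95% interval 0.21 to 0.87), Cd37 (0.50, 0.16 to 0.84), Cd4 (0.43, 0.16 to 0.71) and Cd7 (0.32, 0.02 to 0.62), with higher means in resveratrol livers, and Cd6, a scavenger receptor family antigen of T cells (−0.43, −0.70 to −0.16), and Cd22 (−0.34, −0.66 to −0.01), with lower ones. Their adjusted p lay between 0.589 and 0.924, and the intervals do not show that the groups are alike. Cd6 alone did not overlap, with 1.99 to 2.33 in resveratrol and 2.36 to 2.91 in obese rats. Of all genes, 0.538% were lower and 0.643% higher in that way. Every resveratrol value of Cd6 lay below the lowest array median (2.36), so this separation is among dim values. Cd6 was above the array median on 9 arrays, Cd7 on 11, Cd200 on 16 and Cd37 on 19, and Cd4 and Cd22 on all. For Cd74 the log2 fold change was 0.29 (95% interval −0.14 to 0.73) and for Cd86 0.30 (−0.03 to 0.63). Two-sided exact permutation tests, without adjustment over genes, gave p = 0.0159 for Cd4 and 0.0317 for Cd74, whose limma interval spans 0.

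The direct comparison of the treatments, rosiglitazone minus resveratrol, called Cd63 and Cd22 higher in rosiglitazone livers, 2 of 35 CD genes where 0.517% of all genes were called higher and 0.369% lower. The doses of the compounds are not in the labels, so the values stand side by side without a matched dose. Cd63 measured 5.33, 5.14, 5.03, 5.32 and 5.59 in rosiglitazone rats, against 4.49, 4.55, 4.69, 4.49 and 4.45 in resveratrol rats. The groups stood clearly apart. The log2 fold change was 0.75 (SE 0.14, 95% interval 0.47 to 1.03, or 1.68-fold) with a limma adjusted p of 0.00664.

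Cd22, an inhibitory receptor of B cells that binds sialic acid, measured 3.65, 3.79, 3.38, 3.79 and 3.27 in rosiglitazone rats, against 2.47 to 3.31 in resveratrol rats. The ranges touched, since rosiglitazone rat 5 lay below resveratrol rat 1. Its log2 fold change of 0.67 (SE 0.16, adjusted p = 0.0380) lost its call without rosiglitazone rat 1, 2 or 4 or resveratrol rat 2, 3 or 4 (adjusted p up to 0.121). The B cell gene Ms4a1 was under the filter, and neither of the 2 tested B cell markers passed.

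Cd4 did not overlap between the treatments either (6.26 to 6.72 in rosiglitazone, 5.84 to 6.22 in resveratrol rats) but did not pass (0.51, 95% interval 0.24 to 0.79, adjusted p = 0.0758). Cd74 (0.75, 0.31 to 1.18, adjusted p = 0.108), Cd86 (0.48, 0.15 to 0.81, adjusted p = 0.187) and Cd274 (−0.66, −1.14 to −0.18, adjusted p = 0.214) had intervals apart from 0 without passing. Two-sided exact permutation tests, without adjustment over genes, gave p = 0.00794 for Cd4 and 0.0159 for Cd74. Cd151 was lower in every rosiglitazone rat (6.02 to 6.31) than in every resveratrol rat (6.41 to 6.64), with an adjusted p of 0.260. That made 2 CD genes higher and 1 lower without overlap, beside 1.67% and 1.68% of all genes. Of 19 macrophage receptors under other symbols, 5 were higher in rosiglitazone livers, Vsig4 (0.96, adjusted p = 0.0126) first by p. Of 9 macrophage markers 4 were higher, and Vsig4, Clec4f and Csf1r stand in both lists. Vsig4 passed without any one array, whereas Clec4f and Csf1r each lost the call on leaving out 7 of 10 arrays, one at a time, and Fcer1g on leaving out 6. Csf1r (adjusted p = 0.0670) and Fcer1g (0.0569) also did not pass with the block or with arrays centred on their median (0.0577 and 0.0540), nor Fcer1g with only these groups in the fit (0.0989). The fifth, the integrin chain Itgb2 (0.66, adjusted p = 0.0382), was not followed through the alternatives. All 12 tested genes of the binding partner list were above 0, and 2 were called higher. These, Hmox1 and Ifitm3, lost the call on leaving out 7 and 9 of 10 arrays, one at a time.

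**Figure D4:**
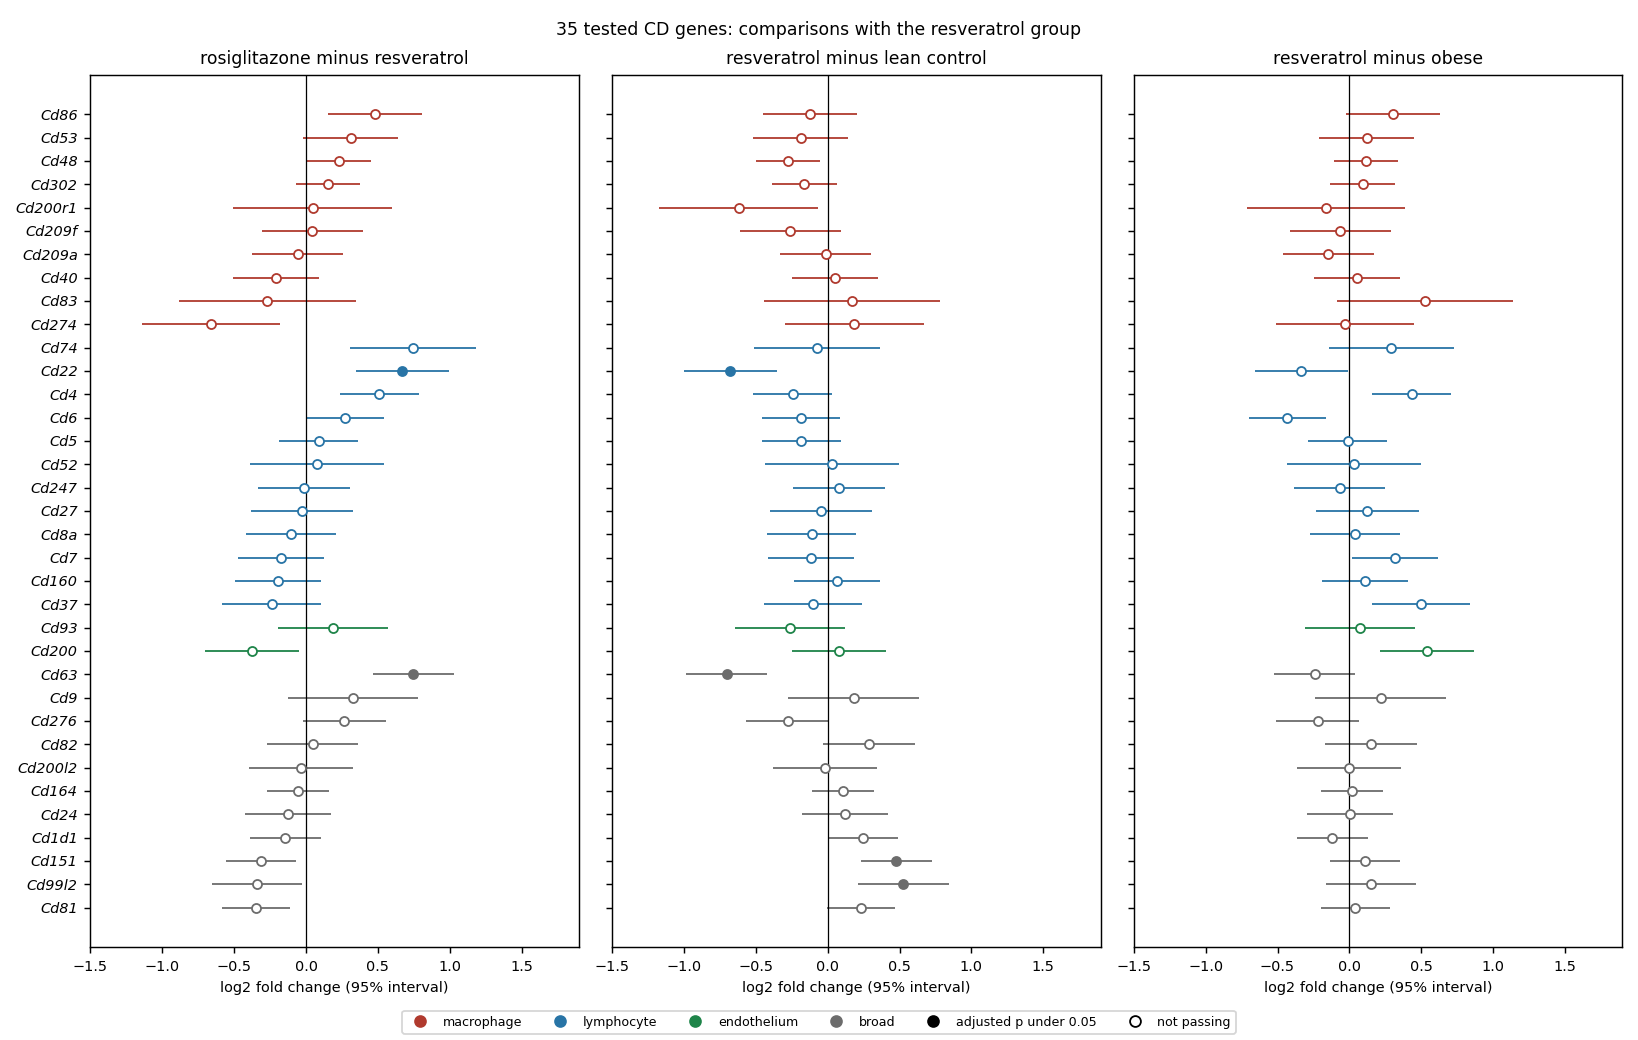
Log2 fold changes (horizontal axis, with 95% intervals) of the 35 tested CD genes for rosiglitazone minus resveratrol, resveratrol minus lean control and resveratrol minus obese, coloured by carrier class. Filled points passed: Cd22 and Cd63 in the left panel, Cd22, Cd63, Cd151 and Cd99l2 in the middle panel and 0 of 35 in the right panel.

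Resveratrol livers differed from lean control livers in 4 CD genes, Cd63 and Cd22 lower and Cd151 and Cd99l2 higher, where 2.33% of all genes were called lower and 2.40% higher. Cd63 measured 4.49, 4.55, 4.69, 4.49 and 4.45 in resveratrol rats, against 4.86, 5.19, 5.07, 5.62 and 5.45 in lean control rats. Every resveratrol rat lay below every lean control rat, and the log2 fold change was −0.70 (SE 0.14, 95% interval −0.99 to −0.42; adjusted p = 0.00829). This was the 1 CD gene lower without overlap, with 0 higher, beside 2.44% of all genes lower and 2.15% higher. Cd22 measured 2.47 to 3.31 in resveratrol rats, against 3.28, 3.68, 3.67, 3.50 and 3.79 in lean control rats, with a log2 fold change of −0.68 (SE 0.16, adjusted p = 0.0169). Resveratrol rat 1 alone reached into the lean control range.

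Cd151 measured 6.54, 6.41, 6.64, 6.45 and 6.50 in resveratrol rats, against 5.69, 5.91, 6.45, 6.08 and 6.02 in lean control rats (0.48, SE 0.12, adjusted p = 0.0257). Only lean control rat 3 reached into the resveratrol range. Cd99l2 measured 7.04, 6.25, 6.81, 6.56 and 6.67 in resveratrol rats, against 6.14, 6.00, 6.27, 5.97 and 6.30 in lean control rats (0.53, SE 0.15, adjusted p = 0.0474). Resveratrol rat 2 lay within the lean range. Both calls were lost, leaving 2 CD genes, without lean control rat 1, 2, 4 or 5 or resveratrol rat 1 or 3. The Cd99l2 call was lost on 8 of 10 leave-outs, also without resveratrol rat 4 (adjusted p = 0.0670) or 5 (0.0747). It was lost without a filter as well (0.0666). Cd63 alone passed with only these groups in the fit.

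Markers of other cell types also differed between resveratrol and lean control livers. All 7 tested endothelium markers were below 0, with a median of −0.47, and 2 were called lower, Lyve1 (−0.47, adjusted p = 0.0346) and the angiopoietin receptor Tek (−0.57, adjusted p = 0.0461). Their mean level per array was 4.76 to 5.01 in resveratrol and 5.20 to 5.37 in lean control livers, without overlap. Of 9 tested macrophage markers 7 were below 0 and 2 were called lower, Clec4f (−0.58, adjusted p = 0.0373) and C1qa (−0.40, adjusted p = 0.0315), at 5.27 to 5.53 in resveratrol and 5.19 to 5.89 in lean control livers. Of 14 endothelial receptors under other symbols 3 were lower, Lyve1, Tek and the adhesion molecule Icam2 (−0.54, adjusted p = 0.0463), and each of these 3 lost the call on leaving out 8 of 10 arrays, one at a time, as Clec4f did on leaving out 7. With only these groups in the fit none of the 4 passed. The macrophage receptor Siglec1 and, of the binding partner list, Ifitm3 and Pvr were called lower as well. Of the lymphocyte receptors Sdc1 was called higher. Each lost the call on leaving out 4 to 9 of 10 arrays, one at a time, and with only these groups in the fit. All 4 tested red blood cell markers were above 0 (median 0.58), and 0 were called. The part of these markers and receptors in the values of Cd63, Cd22, Cd151 and Cd99l2 was not tested.

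Rosiglitazone livers and lean control livers differed in 0 of 35 CD genes by the adjusted limma test, beside 1.01% of all genes called higher and 1.40% called lower, and 6 had an unadjusted p under 0.05, beside 1465 of all 9481 genes. Cd74 came closest (0.67, SE 0.21, 95% interval 0.23 to 1.11, adjusted p = 0.0970), and it passed without rosiglitazone rat 5. Cd4 had a log2 fold change of 0.27 (−0.01 to 0.54) and Cd86 one of 0.36 (0.03 to 0.69). No CD gene was without overlap between these groups, where 1.57% of all genes were higher and 1.68% lower in that way. Of the class II list RT1-DMa passed (0.63, adjusted p = 0.0308). All 9 tested macrophage markers were above 0 (median 0.27) and 14 of 19 macrophage receptors were (median 0.12). Marco, which stands in both lists, was the 1 called higher in each. Of 7 endothelium markers 6 were below 0 (median −0.33) and 0 were called. Of 12 genes of the binding partner list Hmox1 was higher and Pvr lower, and Pvr lost its call in 5 of 8 other settings. The part of these markers in the CD values was not tested.

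Within the lymphocyte class the antigens were uneven in how far they were measured. Cd4, Cd5, Cd22 and Cd74 were above the array median on all 20 arrays. Cd8a, the coreceptor of cytotoxic T cells, was above it on 5, and the signalling chain Cd247 on 8. Its partner genes Cd3d, Cd3e and Cd3g, the costimulatory receptor Cd28 and the T cell adhesion molecule Cd2 were not tested, and Cd8a had log2 fold changes of −0.07 (95% interval −0.38 to 0.25) for rosiglitazone minus obese and −0.15 for obese minus lean control. Levels of different genes on an array do not compare, since each probe set has its own response.

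**Figure D5:**
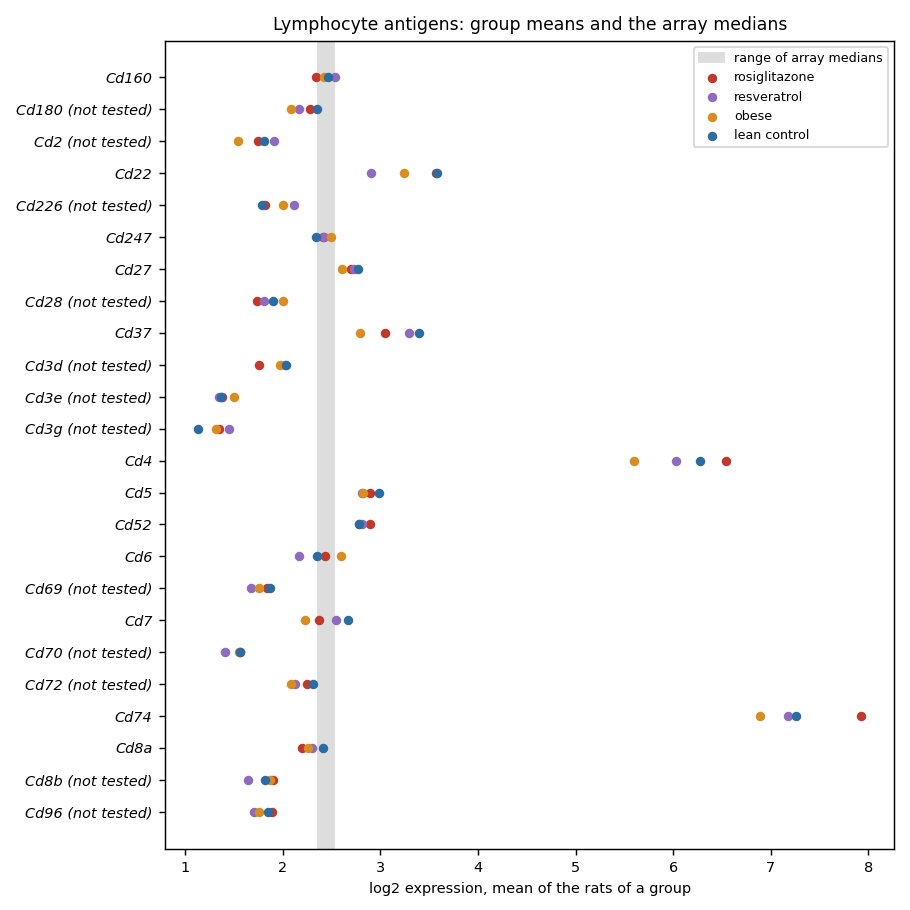
Mean log2 expression (horizontal axis) of the 24 lymphocyte class genes in each group, listed by name, with the range of the array medians, 2.36 to 2.53, as a grey band; each point is the mean of 5 rats. Cd4 and Cd74 lie to the right of the band in every group, while Cd3d, Cd3e and Cd3g lie to its left in every group.

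Among CD genes with no call, Cd302 measured 8.97, 8.88, 9.05, 9.06 and 9.16 in rosiglitazone rats, against 8.84, 8.80, 8.81, 8.55 and 8.91 in obese rats. A single rosiglitazone rat, the second, lay inside the obese range. Cd81 had 9.31, 9.53, 9.09, 8.97 and 9.20 in rosiglitazone rats, against 9.44, 9.42, 9.60, 9.50 and 9.68 in obese rats, with a single rosiglitazone rat inside the obese range. Cd164, a sialomucin, averaged 9.04 to 9.14 over the 4 groups and had its largest SD in the obese group (0.17). Cd83, a marker of mature dendritic cells, spread widely within groups: its SD was 0.42 in rosiglitazone, 0.74 in resveratrol, 0.23 in obese and 0.56 in lean control rats.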

How the data were processed

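Liver RNA of 20 rats was hybridised to Affymetrix Rat Gene 2.1 ST arrays from 100 ng of total RNA. The deposited values are log2 expression of 36685 probe sets, made by the authors with RMA per the submitters' processing notes, and RMA corrects background, quantile normalises and summarises probes. The RMA version is not given in those notes. Groups came from the sample titles. Probe sets with 1 gene symbol gave 14557 genes, and 9481 above the array median in at least 5 arrays were tested. Group means were compared with limma 3.58.1 (lmFit, eBayes, two-sided) in R 4.3.3, all arrays in 1 fit with 16 residual degrees of freedom, with Benjamini-Hochberg adjustment over all genes tested and a threshold of 0.05. Exact permutation tests used scipy 1.17.1 in Python 3.11.15. The members, carrier classes and related lists were chosen with earlier results of these data known. Named were Cd4, Cd74, every CD gene called in a comparison, in each class up to 4 genes with the smallest p against or within the obese group and the 3 with the highest mean, and up to 4 genes per related list and comparison. Others are named by role, after their values were seen. The labels do not say that replicate numbers pair rats across groups. Alternatives were other filters, normalisations, sample sets, weights, a variance trend, a replicate block and each array left out. The number of arrays limits precision.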

Additional observations from a re-analysis of the deposited data

Results flagged for a closer look

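Of 96 sets of 5 rats examined over 24 named CD genes, 1 held a rat far from its group, and chance gives about 1 in 20. Cd83, a marker of mature dendritic cells, measured 3.31 in rosiglitazone rat 5, against 2.25 to 2.51 in the other rosiglitazone rats, a gap of 0.760 of the group's range. Cd83 passed in 0 of the 6 comparisons.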

How the results depend on the processing

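The calls of Cd4, Cd74 and Cd86 in rosiglitazone minus obese and of Cd63 in rosiglitazone minus resveratrol and resveratrol minus lean control held under each array left out and under each other setting that tested them, and a filter at percentile 75 left Cd86 and Cd22 untested. For obese minus lean control the 1 CD gene called became 3 with the filter at percentile 75, 0 with only the compared groups, 2 with a variance trend, 4 with array weights and 4 at an adjusted p under 0.1, a threshold chosen after seeing the data. For rosiglitazone minus resveratrol 2 became 1 without a filter, with repeated quantile normalisation, with arrays centred on their median and with only the compared groups. Resveratrol minus lean control had 4 in the reported fit and 1 with only the compared groups, and rosiglitazone minus lean control had 0 and, at an adjusted p under 0.1, 1 (Cd74). Leaving out each array gave 1 to 6 CD genes for obese minus lean control, 3 to 4 for rosiglitazone minus obese, 0 to 0 for resveratrol minus obese, 1 to 3 for rosiglitazone minus resveratrol, 0 to 1 for rosiglitazone minus lean control and 2 to 4 for resveratrol minus lean control. For Cd93 in resveratrol minus obese (0.07) the leave-outs ran from −0.046 (without resveratrol rat 5) to 0.19 (without obese rat 1), and the sign also changed without obese rat 5 (−0.027). The cause of these changes was not tested. The two-sided exact permutation p for Cd4 was 0.00794 in obese, 0.119 in rosiglitazone and 0.143 in resveratrol, each minus lean control. For Cd74 it was 0.0714, 0.0556 and 0.683 in the same order, all without adjustment over genes. Among the related genes named, several lost the call on leaving out some of 10 arrays. In rosiglitazone minus obese they included Itga4 (4 arrays), Vcam1 (6), Ifitm3 (5) and Lgmn (6). In obese minus lean control they were Lyve1 (5), Cdh5 (7), Fcer1g (3) and Pvr (5), with an adjusted p of up to 0.0976 (Cdh5). In rosiglitazone minus lean control they were RT1-DMa (5), Marco (3), Hmox1 (6) and Pvr (9), with an adjusted p of up to 0.114 (Pvr). With only the compared groups, Itga4 was also lost in rosiglitazone minus obese (adjusted p = 0.0652). In rosiglitazone minus lean control RT1-DMa (0.115), Marco (0.0547) and Pvr (0.0509) were lost in that fit. Clec4f in rosiglitazone minus obese and C1qa in either comparison that names it were not followed through the alternatives.

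The labels do not say that rats with the same number belong together. Correlations of their deviations from the group means lay between −0.25 and 0.25. At most 3 of 10 samples in a comparison correlated best with their own number. A processing step shared by rats of the same number was not tested. With the replicate block, 2 CD genes passed for obese minus lean control (Cd4, Cd37), 3 for rosiglitazone minus obese, 0 for resveratrol minus obese, 1 for rosiglitazone minus resveratrol (Cd63), 0 for rosiglitazone minus lean control and 3 for resveratrol minus lean control, so the block lost Cd22 (adjusted p = 0.0670) and Cd99l2 (adjusted p = 0.0813). Of the related genes named, it lost Itga4 and Vcam1 in rosiglitazone minus obese and Cdh5 in obese minus lean control. Also lost were Csf1r and Fcer1g in rosiglitazone minus resveratrol and Lyve1, Tek, Icam2, Siglec1 and Ifitm3 in resveratrol minus lean control. Pvr was lost in rosiglitazone minus lean control (adjusted p = 0.0624).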
